A study of Arabidopsis thaliana with 6 samples.

Results

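Jasmonates are fatty acid hormones that plants make in response to wounding and herbivores and that are also needed for fertile stamens. Their synthesis begins in the chloroplast. A lipoxygenase (LOX) oxygenates linolenic acid, allene oxide synthase (AOS) turns the hydroperoxide into an unstable epoxide, and allene oxide cyclase (AOC) closes its ring to give OPDA (12-oxo-phytodienoic acid). OPDA then moves to the peroxisome, where OPDA reductase (OPR3) reduces it before its side chain is shortened to jasmonic acid. Many of these genes are themselves switched on by jasmonate signalling.

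The 10 genes described here code for these 4 steps in the thale cress Arabidopsis thaliana and were picked by locus identifier out of the 32948 genes of the table. They are the lipoxygenase genes LOX2 (AT3G45140), LOX3 (AT1G17420), LOX4 (AT1G72520) and LOX6 (AT1G67560), AOS (AT5G42650), the cyclase genes AOC1 (AT3G25760), AOC2 (AT3G25770), AOC3 (AT3G25780) and AOC4 (AT1G13280), and OPR3 (AT2G06050). Poly(A)-selected RNA was sequenced from Arabidopsis seedlings of 2 genotypes, the mutant cnd1-3 and the wild type Col-0, with 3 libraries each and no treatment named. The labels state neither seedling age nor growth conditions, nor what kind of allele cnd1-3 is. They also do not tell whether each library came from its own batch of plants, so the p-values reflect the spread among these libraries, which may be technical. Levels are in FPKM, that is, divided by exon length and by the library's assigned reads, and can be compared between genes.

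The libraries held 22125814 to 23081866 reads assigned to genes for cnd1-3 and 23290031 to 30455907 for Col-0. The label calls the material seedling. Markers of green tissue were high in all 6 libraries, with a summed level of 50500 to 55600 FPKM over 4 genes in cnd1-3 and 52700 to 53500 in Col-0. Root markers were almost absent: 4 of 6 were detected at all, their summed level was 0.0387 to 0.138 FPKM in cnd1-3 and 0 to 0.0475 in Col-0, and EXPA7 and MYB36 were at 0 throughout. Of 4 flower markers 3 were detected, at a summed 0.125 to 0.283 FPKM in cnd1-3 and 0.201 to 0.237 in Col-0, with AP1 at 0, and the 3 seed markers CRA1, SESA1 and OLEO1 were at 0 in all libraries. The values below thus come from libraries with the markers of green tissue and next to none of root. In RNA of whole tissue, fewer cells of a type and less RNA per cell cannot be told apart.

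In the TAIR10.1 annotation AOC1, AOC2 and AOC3 lie side by side on the plus strand of chromosome 3, at 9403779 to 9405338, 9406669 to 9408071 and 9409160 to 9411090, and AOC4 lies on chromosome 1 at 4547388 to 4548894. Each of the 4 has 2 coding exons, and the proteins have 253 to 258 residues. The coding sequences of AOC1 and AOC2 are 90.3% identical, and those of AOC3 are 82.7% and 82.4% identical to AOC1 and AOC2. AOC4 is 74.4% to 80.2% identical to the others. Because the results separate these copies, a stretch of each is shown. Among stretches within an exon that align without gaps in all 4 genes, AOC1 and AOC3 together differ least from AOC2 in these 60 coding bases. The bases are given on the plus strand of TAIR10.1, with those that differ from AOC2 in capitals. They lie at chr3:9404935-9404994 in AOC1, chr3:9407669-9407728 in AOC2, chr3:9410239-9410298 in AOC3 and chr1:4548382-4548441 in AOC4.
AOC1: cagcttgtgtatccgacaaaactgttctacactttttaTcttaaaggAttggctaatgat
AOC2: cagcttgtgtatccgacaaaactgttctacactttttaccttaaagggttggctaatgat
AOC3: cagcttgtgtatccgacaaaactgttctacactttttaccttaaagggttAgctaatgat
AOC4: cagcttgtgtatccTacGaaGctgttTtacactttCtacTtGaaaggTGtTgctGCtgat
Here AOC1 differs from AOC2 at 2 bases, AOC3 at 1 and AOC4 at 12. Of all 150-base stretches of their transcripts, the length of a read, 0% occurred in the transcript of any other gene, for each of the 10 genes. Of 50-base stretches, 2.1% of those of AOC1, 1.6% of those of AOC3 and 0.1% of those of AOC2 occurred in a neighbouring copy. A full-length read could thus be told apart between the copies, and 0% of the exon bases of the 10 genes are shared with an overlapping gene.

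OPR3 and the minor cyclase copy AOC3 passed the test as lower in cnd1-3. Of the 6 fits that each left out 1 library, OPR3 passed in 2 and AOC3 in 1. AOS was lower in each cnd1-3 library than in any of Col-0 without passing the test, and LOX2 and AOC2, the most abundant lipoxygenase and cyclase transcripts, overlapped between the genotypes. Over all genes, 11.1% of 17096 tested passed limma's test at an adjusted p under 0.05, 7.59% lower and 3.5% higher in cnd1-3. Of the 10 jasmonate synthesis genes 9 had the mean level of 0.5 FPKM needed for testing, and 2 of them, AOC3 and OPR3, passed as lower in cnd1-3, with 0 higher and 7 that did not pass. At an unadjusted p under 0.05 there were 5, all lower, against 28.6% of all tested genes. The median log2 fold change was -0.27 over these 9 genes and -0.05 over all tested genes. AOC3 lay just inside that minimum, with a mean of 0.52 FPKM over all libraries, and it met it only through Col-0. LOX4 lay just outside, at 0.473. All libraries of cnd1-3 lay below all of Col-0 for 5 of the 10 genes (LOX6, AOS, AOC3, AOC4 and OPR3) and above them for 0, where 21.5% of tested genes had such a gap downward and 12.3% upward, 33.9% in either direction. The 10 genes were chosen with earlier results of these data known, so their counts and median are a description beside these shares and no separate result.

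**Figure D1:**
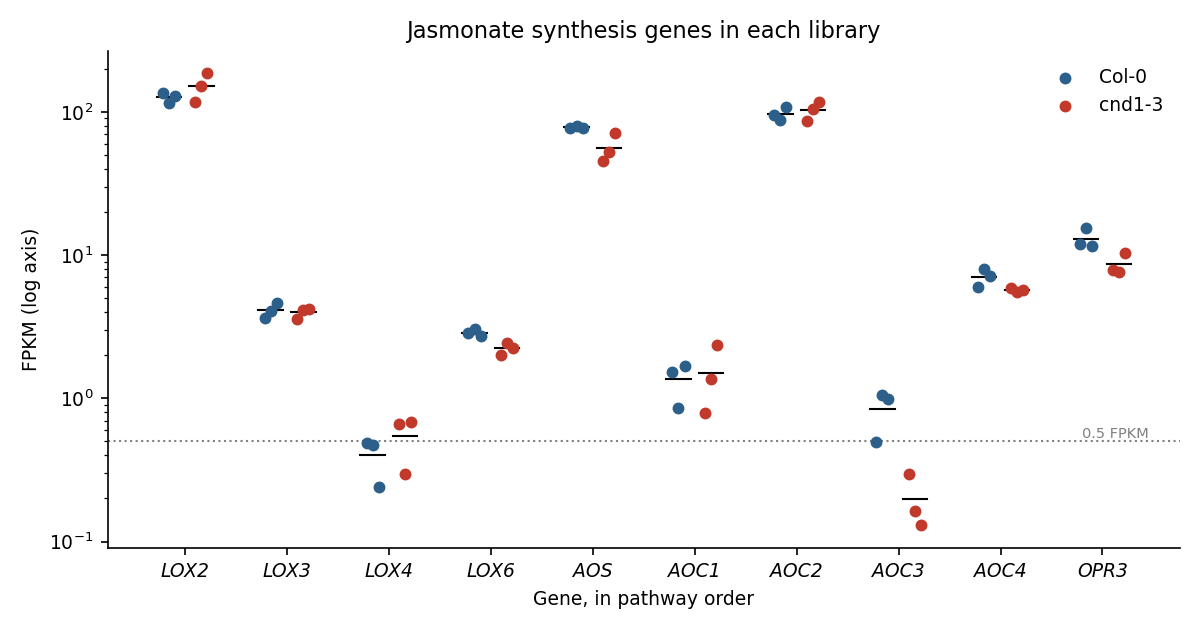
FPKM of the 10 jasmonate synthesis genes on a log axis, in pathway order, with 1 point per library (blue Col-0, red cnd1-3), black bars at the mean of 3 libraries and a dotted line at the minimum for testing. LOX2, AOC2 and AOS are the 3 genes above 50 FPKM, and the points of the genotypes are apart for AOC3 and OPR3 and close for LOX3.

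LOX2, the chloroplast lipoxygenase behind most of the jasmonate made in wounded leaves, had the highest level of the 10 genes. It stood at 118, 151 and 186 FPKM in the 3 cnd1-3 libraries and at 135, 116 and 130 in Col-0. The groups overlapped, and the cnd1-3 libraries were spread more widely than those of Col-0. The means were 152 ± 33.8 and 127 ± 9.54 FPKM (SD, n = 3), and the log2 fold change was 0.23 (95% interval -0.10 to 0.56, limma adjusted p = 0.329). It was 0.40 without cnd1-3 replicate 1 (adjusted p = 0.0862) and 0.08 without cnd1-3 replicate 3 (0.74). A fall of the size seen for OPR3, -0.57, lies outside the interval from all libraries.

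LOX3, which acts with LOX4 in stamen development and in leaf-to-leaf wound signals, had 3.57, 4.13 and 4.24 FPKM in cnd1-3 and 3.63, 4.10 and 4.62 in Col-0. These ranges almost coincided, and the log2 fold change was -0.04 (95% interval -0.30 to 0.22, limma adjusted p = 0.849). LOX4 had 0.662, 0.297 and 0.683 FPKM in cnd1-3 and 0.485, 0.474 and 0.24 in Col-0, which rests on totals of 113 and 100 reads. The groups overlapped, and a fit without the minimum level gave 0.21 on the log2 scale (SE 0.19, limma adjusted p = 0.569). LOX6, which serves the fast rise of jasmonate in cells of the xylem, had 2, 2.44 and 2.26 FPKM in cnd1-3 and 2.87, 3.03 and 2.73 in Col-0. Every cnd1-3 library was lower, but the log2 fold change of -0.31 (SE 0.11) did not pass (limma adjusted p = 0.112).

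LOX2 made up nearly all of the transcript of this step. Its share of the summed FPKM of the 4 lipoxygenase genes was 95%, 95.6% and 96.3% in cnd1-3 and 95.1%, 93.9% and 94.5% in Col-0. The summed level was 158 ± 34.3 FPKM in cnd1-3 and 134 ± 9.28 in Col-0 (exact two-sided permutation p = 0.3). With 3 libraries against 3 the smallest p this test can give is 0.1.

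AOS, the cytochrome P450 that commits the hydroperoxide to the jasmonate branch, is a single gene with 1 coding exon on the minus strand of chromosome 5 (17097564 to 17099595). It had 45.1, 52.4 and 71.5 FPKM in cnd1-3 and 77.6, 79.2 and 76.9 in Col-0. The Col-0 libraries were nearly equal, all 3 cnd1-3 libraries were lower, and cnd1-3 replicate 3 came closest to Col-0. The means were 56.3 ± 13.6 and 77.9 ± 1.19 FPKM, a ratio of 0.723. The log2 fold change of -0.49 (95% interval -0.82 to -0.16) did not pass the threshold (limma adjusted p = 0.0614). Without cnd1-3 replicate 3 it was -0.68 and passed (adjusted p = 0.00412), and limma's voom on recovered read counts also passed it (0.0347). Without cnd1-3 replicate 1 it was -0.35 (adjusted p = 0.16), and without any other library it did not pass either (0.0964 to 0.159).

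AOC2 made up most of the cyclase transcript, as LOX2 did of the lipoxygenase transcript. It had 86.6, 105 and 117 FPKM in cnd1-3 and 94.9, 87.6 and 109 in Col-0. The groups overlapped almost fully (log2 fold change 0.08, 95% interval -0.20 to 0.35, limma adjusted p = 0.715). Its share of the summed FPKM of the 4 cyclase genes was 92.5%, 93.7% and 93.5% in cnd1-3 and 92.2%, 89.8% and 91.8% in Col-0. The summed level was 110 ± 15.9 FPKM in cnd1-3 and 107 ± 11.2 in Col-0 (exact two-sided permutation p = 0.8).

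AOC3 fell in cnd1-3 from an already low level. It had 0.297, 0.163 and 0.13 FPKM in cnd1-3, from 11, 6 and 5 reads, and 0.494, 1.05 and 0.983 in Col-0, from 25, 46 and 38 reads. Every cnd1-3 library was below every Col-0 library. Over the groups its read share was 4.18 times higher in Col-0, with a 95% exact counting interval of 2.62 to 6.94 that covers counting error only. The log2 fold change of FPKM plus 0.5 was -0.93 (SE 0.23, limma adjusted p = 0.038). At this low level the added 0.5 draws the value toward 0: with 0.1 added it was -1.65, with 1 added -0.61, and by voom -1.99, and all 3 passed. AOC3 made up 0.189% ± 0.113 of the summed cyclase FPKM in cnd1-3 and 0.795% ± 0.301 in Col-0. Leaving out any 1 library other than Col-0 replicate 1 ended the call, with limma adjusted p-values of 0.0708 to 0.126, and without Col-0 replicate 1 it held (0.0232).

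AOC1 and AOC4 did not pass. AOC1 had 0.791, 1.37 and 2.36 FPKM in cnd1-3 and 1.52, 0.862 and 1.69 in Col-0, and its libraries overlapped (log2 fold change 0.07, SE 0.29, limma adjusted p = 0.907). AOC4 had 5.94, 5.52 and 5.68 FPKM in cnd1-3 and 5.99, 8.04 and 7.13 in Col-0, so that the nearest libraries of the genotypes were almost level (log2 fold change -0.27, SE 0.11, adjusted p = 0.142). The 3 neighbours AOC1, AOC2 and AOC3 taken as 1 feature stood at 32.8 ± 4.99 FPKM in the mutant and 31.2 ± 3.57 in the wild type (log2 fold change 0.06, SE 0.12, limma adjusted p = 0.766). Their reads were summed and divided by their summed exon length, so this level lies below that of AOC2 alone. AOC2 held 9054 of these reads in cnd1-3, against 122 for AOC1 and 22 for AOC3, so this value mainly repeats that of AOC2.

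OPR3, the peroxisomal reductase that acts on OPDA, fell in cnd1-3. It lies on the minus strand of chromosome 2 (2359114 to 2362375) and had 7.91, 7.60 and 10.4 FPKM in cnd1-3 and 12.0, 15.5 and 11.6 in Col-0. All 3 cnd1-3 libraries were lower, with replicate 3 again nearest to Col-0. The means were 8.64 ± 1.54 and 13 ± 2.16 FPKM, a ratio of 0.665, and the log2 fold change was -0.57 (SE 0.14, limma adjusted p = 0.0386). The call was lost without cnd1-3 replicate 1 (adjusted p = 0.122), cnd1-3 replicate 2 (0.112), Col-0 replicate 1 (0.0663) and Col-0 replicate 2 (0.115), with no minimum level (0.0729) and without the intensity trend (0.0659).

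**Figure D2:**
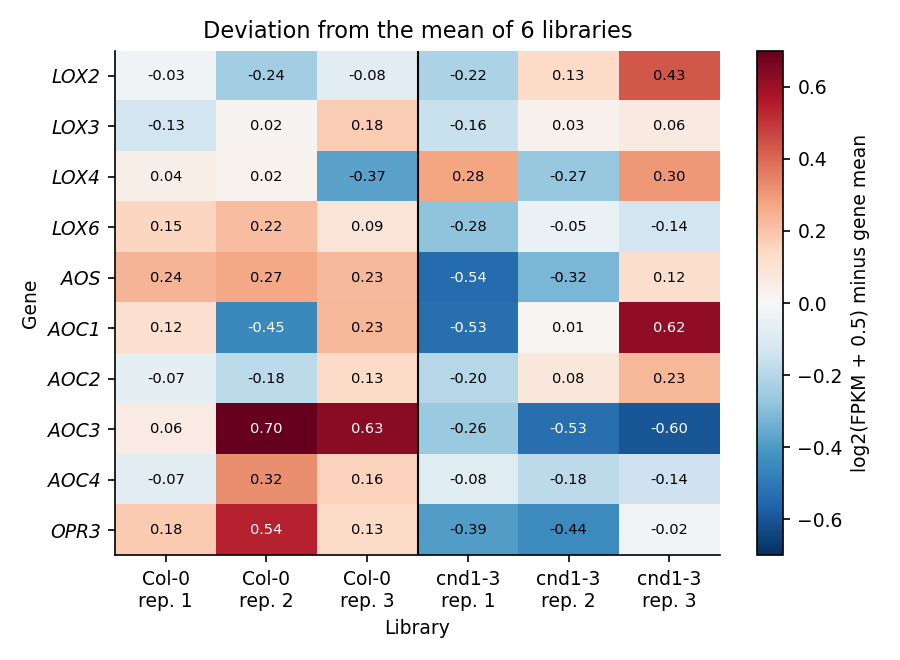
Level of each gene in each library as the deviation of log2(FPKM + 0.5) from the gene's mean over the 6 libraries (red above, blue below), Col-0 on the left. AOS is at 0.23 to 0.27 in Col-0 and at -0.54, -0.32 and 0.12 in cnd1-3, and cnd1-3 replicate 3 is the highest cnd1-3 library for 7 of the 10 genes.

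The cnd1-3 libraries differed among themselves in the same direction for most of these genes. Replicate 3 was the highest of them for 7 of the 10 genes and replicate 1 the lowest for 6, as the heatmap shows. How often these libraries were the highest or lowest over all tested genes was not counted. For LOX2 the coefficient of variation was 22.3% in cnd1-3 and 7.51% in Col-0, where counting error alone gives 0.948% and 0.951%. For AOS it was 24.2% and 1.53%, where counting gives 1.97% and 1.54%. AOC4 and LOX6 had no such excess in cnd1-3, at 3.74% with 7.61% from counting and at 9.81% with 7.72%.

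LOX2, AOC2 and AOS shared their highest and their lowest cnd1-3 library, so ratios of genes within a library were also compared. These ratios were chosen after the values were seen, and they do not depend on the scaling between libraries. AOS stood at 0.381, 0.347 and 0.384 of LOX2 in cnd1-3 and at 0.575, 0.68 and 0.593 in Col-0. The ratios of the genotypes were well apart, with means of 0.371 ± 0.0206 and 0.616 ± 0.0563 (exact two-sided permutation p = 0.1, the smallest possible). Among the cnd1-3 libraries this ratio varied less than the level of AOS (5.55% against 24.2%), and among the Col-0 libraries it varied more (9.14% against 1.53%). OPR3 stood at 0.0578 ± 0.00838 of LOX2 in cnd1-3 and 0.104 ± 0.0255 in Col-0, again with no overlap (exact permutation p = 0.1). Against AOC2 in place of LOX2, AOS stood at 0.543 ± 0.06 and 0.808 ± 0.1, and OPR3 at 0.0842 ± 0.0105 and 0.136 ± 0.0366, both with no overlap (exact permutation p = 0.1 each). AOC2 to LOX2 (0.687 ± 0.0523 and 0.766 ± 0.0702, exact permutation p = 0.2) and OPR3 to AOS (0.155 ± 0.0174 and 0.167 ± 0.025, exact permutation p = 0.5) overlapped between the genotypes. When libraries were left out in turn, the log2 difference of AOS to LOX2 stayed between -0.78 and -0.66. The ratios share genes and are not independent of each other. Adjusted over the 17 shares, sums and ratios computed, each exact permutation p of 0.1 became 0.213, so that none passed.

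**Figure D3:**
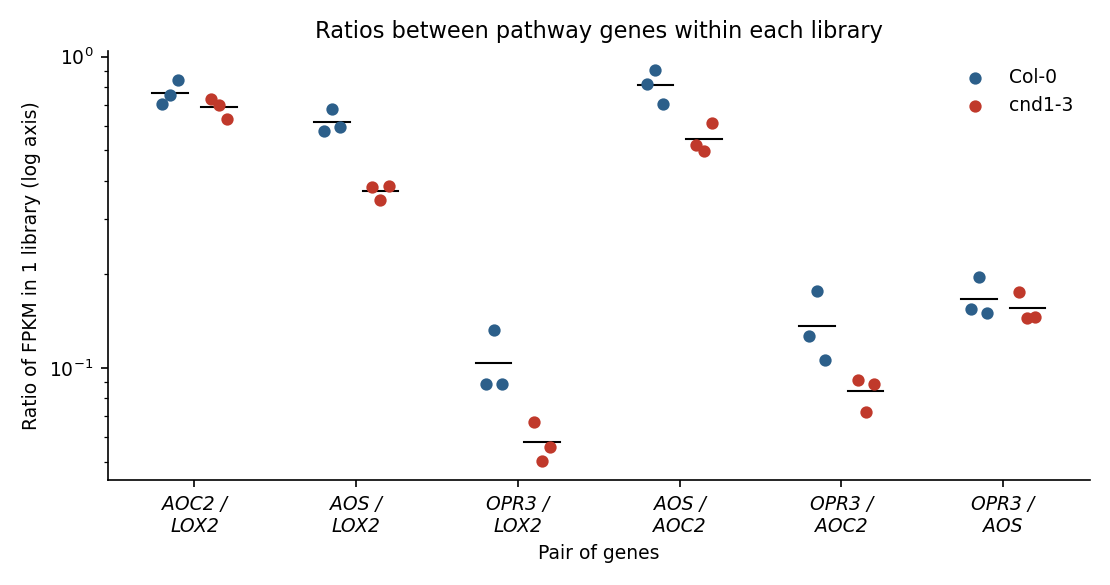
Ratio of the FPKM of 2 genes within each library, on a log axis, with 1 point per library (blue Col-0, red cnd1-3) and black bars at the mean of 3. AOS and OPR3 are lower relative to LOX2 and to AOC2 in every cnd1-3 library, while AOC2 to LOX2 and OPR3 to AOS overlap.

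The 300 bases before the annotated start of OPR3 and AOC3, which passed, and of AOS, which did not, are shown on the coding strand of TAIR10.1, because jasmonate synthesis genes are known targets of MYC factors, which bind the G-box CACGTG, and of the AP2/ERF factor ORA47. Searched on both strands were the G-box CACGTG, its variant AACGTG and CCGAC, the core of the dehydration-responsive element bound by factors related to ORA47. Capitals mark the matches. The stretches are chr5:17099596-17099895 (minus strand) for AOS, chr2:2362376-2362675 (minus strand) for OPR3 and chr3:9408860-9409159 (plus strand) for AOC3.
AOS: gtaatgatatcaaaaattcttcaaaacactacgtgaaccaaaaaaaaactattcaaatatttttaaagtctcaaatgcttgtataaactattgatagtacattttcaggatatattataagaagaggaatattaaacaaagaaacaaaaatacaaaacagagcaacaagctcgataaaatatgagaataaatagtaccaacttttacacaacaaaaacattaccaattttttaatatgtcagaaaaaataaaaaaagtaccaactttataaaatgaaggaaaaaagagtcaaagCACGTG
OPR3: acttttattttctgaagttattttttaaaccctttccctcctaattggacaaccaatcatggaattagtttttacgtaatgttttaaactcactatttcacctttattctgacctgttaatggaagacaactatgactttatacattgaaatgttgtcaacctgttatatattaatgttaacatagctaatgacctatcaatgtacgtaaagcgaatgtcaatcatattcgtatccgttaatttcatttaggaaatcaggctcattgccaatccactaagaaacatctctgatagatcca
AOC3: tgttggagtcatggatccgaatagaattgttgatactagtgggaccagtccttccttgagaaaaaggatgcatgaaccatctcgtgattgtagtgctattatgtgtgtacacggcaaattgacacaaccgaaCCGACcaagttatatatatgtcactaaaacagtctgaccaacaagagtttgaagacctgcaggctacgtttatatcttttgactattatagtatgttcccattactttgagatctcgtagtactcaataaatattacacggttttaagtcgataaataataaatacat
AOS holds a G-box that ends at the last base before the annotated start, AOC3 holds 1 CCGAC, and none of the 3 motifs lies in these bases of OPR3. Of the 10 genes 1 holds CACGTG, 2 hold AACGTG (LOX4 and AOC1) and 1 holds CCGAC, where 7.1%, 8.7% and 13.9% of 27431 protein-coding genes do. A match is a description of the letters in this window.

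Genes that work before and after the 4 steps were read from lists of the pathway. Of 5 genes that supply the fatty acid, 3 were tested and 1 passed. FAD3, a desaturase of the endoplasmic reticulum that makes linolenic acid, had 93.6, 84.3 and 91.6 FPKM in cnd1-3 and 116, 125 and 117 in Col-0. It fell in the mutant by 0.41 on the log2 scale (SE 0.07, limma adjusted p = 0.00771). The plastid desaturases FAD7 and FAD8 did not pass (-0.04 and -0.22, adjusted p = 0.784 and 0.0613), and the lipase genes DAD1 and DGL were listed at 0 in all libraries. Of 4 tested genes for other oxylipin enzymes 0 passed. OPR1, a reductase related to OPR3 whose exons overlap those of OPR2 on the same strand, had 10.5 ± 0.998 FPKM in cnd1-3 and 13 ± 0.755 in Col-0 (-0.30, adjusted p = 0.0683), and HPL1, a hydroperoxide lyase that competes with AOS, 15.4 ± 0.736 and 17.5 ± 1.83 (-0.18, adjusted p = 0.235).

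Of 8 tested genes for the export of OPDA from the chloroplast, its uptake into the peroxisome and the steps after OPR3, 1 was lower, 0 were higher and 7 did not pass, with a median log2 fold change of 0.16. With 11.1% of all tested genes called, 1 gene of 8 is near the background. OPCL1, which activates the reduced OPDA with coenzyme A, had 4.09, 3.65 and 5.11 FPKM in cnd1-3 and 5.62, 8.73 and 8.05 in Col-0, all lower in the mutant (-0.72, SE 0.17, limma adjusted p = 0.0296). Its call was lost without cnd1-3 replicate 1 (adjusted p = 0.0911) or 2 (0.089) and without Col-0 replicate 2 (0.101) or 3 (0.0685), with no minimum level (0.0633) and without the trend (0.0505). The oxidation genes ACX1, AIM1, MFP2 and KAT2, which also break down other fatty acids, differed by 0.24, 0.16, 0.16 and 0.30 on the log2 scale (limma adjusted p = 0.0803, 0.398, 0.241 and 0.111). The rest of the list, the oxidation gene ACX5, the uptake gene PXA1 and the export gene JASSY, differed by 0.05, -0.15 and 0.17 (limma adjusted p = 0.765, 0.309 and 0.301).

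Conjugation and turnover of the hormone showed no called gene. JAR1, which joins jasmonic acid to isoleucine to form the active hormone, had 18.5 ± 1.29 FPKM in cnd1-3 and 19.8 ± 1.5 in Col-0 (log2 fold change -0.10, limma adjusted p = 0.498), and the transporter gene JAT1 had 2.59 ± 0.296 and 2.12 ± 0.293 (0.24, adjusted p = 0.272). Of 10 genes that break the hormone down only IAR3 and ILL6, which split the conjugate, had enough reads to be tested, and they differed by 0.13 and -0.29 on the log2 scale (limma adjusted p = 0.299 and 0.339). Of 6 output genes 1 was tested. CORI3, a jasmonate-responsive lyase gene, had 53.9 ± 18.2 FPKM in cnd1-3 and 37.7 ± 10.7 in Col-0 (0.49, adjusted p = 0.232), and VSP2, a storage protein gene and classic marker of the response, lay below the minimum at 0.446 ± 0.21 and 0.231 ± 0.104 FPKM.

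Among the genes that perceive and relay the hormone, 1 repressor and 3 transcription factor genes were lower in cnd1-3. Of 9 tested genes of the receptor and repressor list 1 passed. JAZ1, a repressor that jasmonate both induces and destroys, stood at 2.53 ± 1.15 FPKM in the mutant and at 13.8 ± 4.43 in the wild type, with no overlap (log2 fold change -2.26, SE 0.28, limma adjusted p = 0.00213). The receptor gene COI1 did not pass (-0.20, adjusted p = 0.134). Of 6 tested transcription factor genes 3 were lower and 0 higher, where 7.59% of all tested genes were lower and 3.5% higher. These lists too were chosen with earlier results of these data known, so their counts are no separate result. ORA47, which is known to activate jasmonate synthesis genes, had 1.97, 1.46 and 0.681 FPKM in cnd1-3 and 19.0, 50.5 and 43.6 in Col-0 (-4.30, SE 0.37, adjusted p = 0.000479). Of its exon bases 8.4% overlap a gene on the opposite strand, and whether the reads kept their strand is not stated. JAM1, a repressor of the response, had 7.7 ± 0.206 and 12.5 ± 0.823 FPKM (-0.67, SE 0.08, adjusted p = 0.00176), and MYC4, an activator, 4.31 ± 0.198 and 6.72 ± 0.224 (-0.59, SE 0.08, adjusted p = 0.00384).

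**Figure D4:**
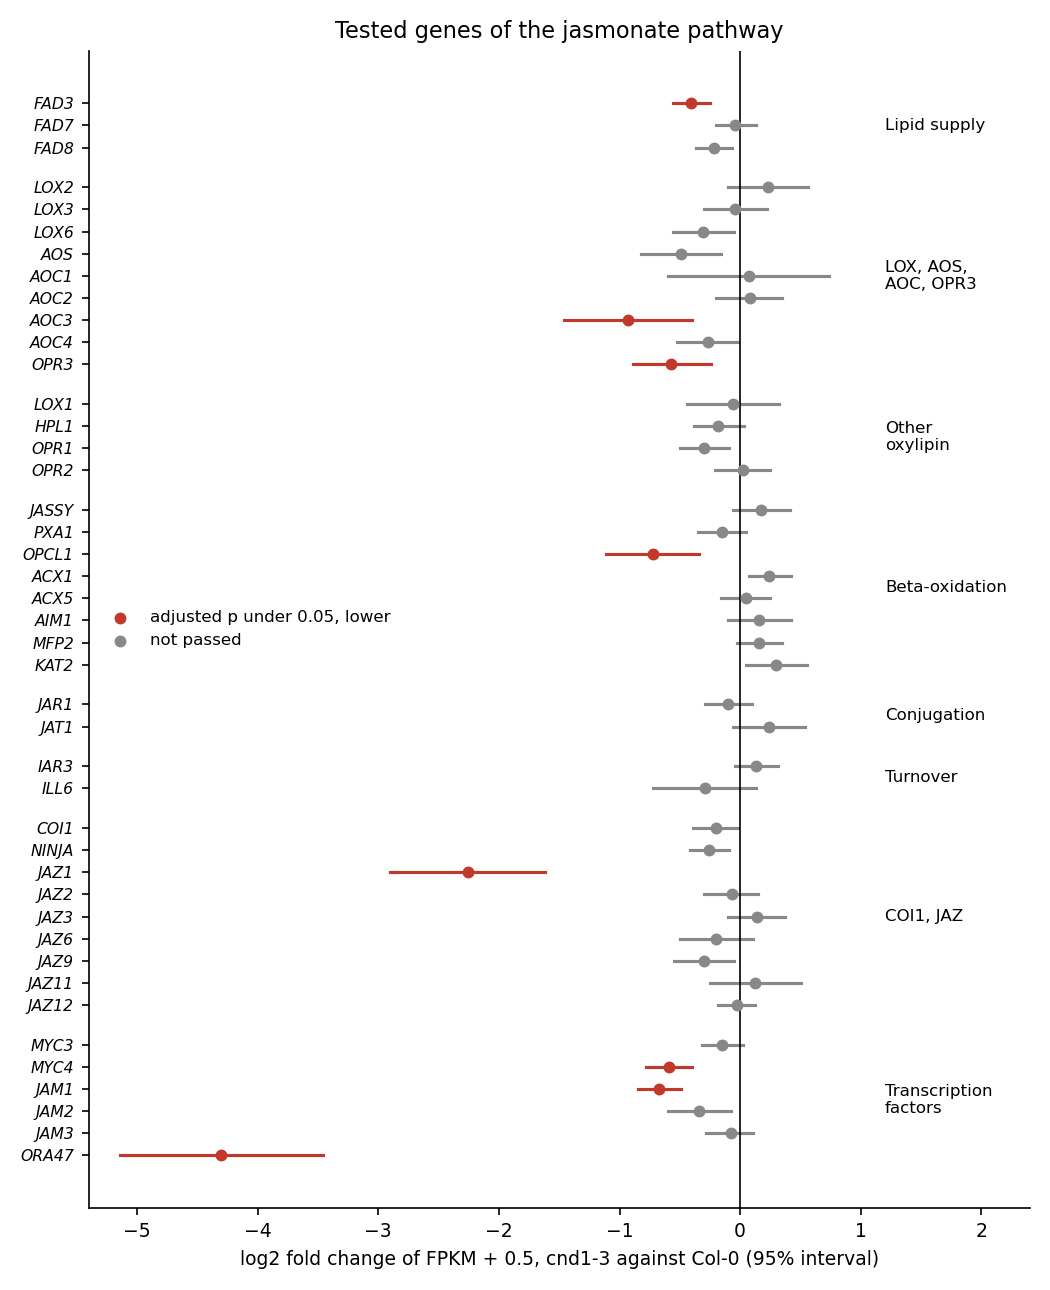
Log2 fold change of FPKM + 0.5 with its 95% interval for 43 tested genes of the jasmonate lists other than the output genes, cnd1-3 against Col-0, from limma. The 8 red genes passed at an adjusted p under 0.05, all lower in cnd1-3, and the interval of LOX2 spans 0 while that of OPR3 lies below it.

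Of 8 tested genes from a list of fast responses to wounding and touch, 5 were lower in cnd1-3, 0 were higher and 3 did not pass, with a median log2 fold change of -1.78. Over all tested genes 7.59% were lower and 3.5% higher. The list was chosen with earlier results of these data known, so its counts are no separate result. The listed genes that did not pass, TCH3, TCH4 and WRKY53, overlapped between the genotypes (-0.87, -0.19 and -0.08, limma adjusted p = 0.073, 0.814 and 0.858). ZAT12, a zinc finger gene of oxidative stress, had 2.93, 1.57 and 1.94 FPKM in cnd1-3 and 12.9, 25.3 and 21.4 in Col-0 (-2.93, SE 0.25, limma adjusted p = 0.000488). The WRKY factor gene WRKY40, the zinc finger gene ZAT10 and the calmodulin-like gene CML38 were at -2.77, -2.54 and -2.35 on the log2 scale (limma adjusted p = 0.00552, 0.00302 and 0.00918). ERF109, an early factor of the same response, has 64% of its exon bases over genes of the opposite strand. It was read 0 times in the mutant and 101 times in the wild type, with 8, 50 and 43 reads in Col-0 replicates 1, 2 and 3. With a floor of 3 reads over the group, its pooled read share was at least 28.4-fold lower in the mutant. This bound covers counting error only and not the spread among the Col-0 libraries. Among the Col-0 libraries replicate 1 was the lowest for every gene of this list other than CML38, and for ORA47, JAZ1 and AOC3. Replicate 3 was the lowest for CML38, AOS and OPR3, but only by small gaps. In Col-0 replicates 1, 2 and 3 CML38 had 8.07, 8.19 and 7.7 FPKM and AOS 77.6, 79.2 and 76.9. OPR3 had 12 FPKM in replicate 1 and 11.6 in replicate 3. The part of these fast-responding genes in the values of AOS, AOC3 and OPR3 was not tested.

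The genes whose levels followed AOC3 most closely over the 6 libraries were ERF13 (AT2G44840), AT1G19970, AT3G54200, AT1G18740 and AT1G58420, with Pearson correlations of 0.995 to 0.997. These correlations are a description, since the difference between the genotypes alone makes many genes correlate. ERF13, an ethylene response factor gene, had 1.93, 0.853 and 0.779 FPKM in cnd1-3 and 2.92, 8.84 and 8.22 in Col-0, and since it was chosen for its likeness to AOC3, its difference between the genotypes is no separate result.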

How the data were processed

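The authors deposited 1 table of FPKM values per gene and library, in which no further scaling between libraries was seen. Per the submitters' processing notes, the tools included HISAT2, featureCounts, Subread and DESeq2 on the build TAIR10; their versions, roles and settings are not stated there. The nuclear gene models and sequences come from RefSeq's TAIR10.1. Multiplying FPKM by exon length returned read numbers within 0.01 of a whole one in 99.34% to 99.37% of nonzero values, which gives the depths and read numbers printed here. Intervals and floors on reads cover counting error only. FPKM plus 0.5 was tested on the log2 scale with limma 3.58.1 in R 4.3.3 (eBayes with an intensity trend) for the 17096 genes with a mean of at least 0.5 FPKM, with Benjamini-Hochberg adjustment over all of them and a threshold of 0.05. The procedure was tested on simulated data. All 10 genes were named, and from each other list up to 4 called genes with the largest change or, with none called, the 2 with the highest mean. The 5 genes most like AOC3 were named by Pearson correlation. FAD7, FAD8, DAD1, DGL, ACX1, ACX5, AIM1, MFP2, KAT2, PXA1, JASSY, COI1, VSP2, TCH3, TCH4, WRKY53, ERF109, MYC2, MYC3 and AT1G32630 were named after their values were seen. The genes and lists were chosen with earlier results of these data known. Exact permutation tests compared single ratios. The alternatives were other pseudocounts, minimum levels, scalings, variance models, voom on recovered reads and leaving out each library. Sequence comparison used Biopython 1.88. The samples sharing a replicate number were not treated as pairs: the correlations of their deviations from the group means were 0.0324, 0.157 and 0.263.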

Additional observations from a re-analysis of the deposited data

How the results depend on the processing

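The number of jasmonate synthesis genes called lower was 2, and it was 1 with no minimum level, 1 with a minimum of 2 FPKM (where AOC3 is too low to be tested), 1 without the intensity trend, and 0 to 2 when each library was left out in turn, with 0 without cnd1-3 replicate 1, cnd1-3 replicate 2 or Col-0 replicate 2. It was 3 with the replicate number as a block and with voom, where AOS joined AOC3 and OPR3. The number called higher by limma was 0 in all 18 alternatives, and 0 were higher at an unadjusted p under 0.05. With that replicate block the count of all changed genes was 2879 in place of 1896, and without single libraries it lay between 906 and 1848. The block also made CORI3 pass as higher (0.49, limma adjusted p = 0.0298), where leaving out single libraries gave 0.24 to 0.72 with no call. AOS did not pass with no minimum level (0.105) or without the trend (0.103). Whether the labels' replicate numbers pair the libraries is not settled by the check used. Not every same-numbered pair correlated above 0.1, and cnd1-3 replicate 1 correlated better with Col-0 replicate 2 (0.0846) than with Col-0 replicate 1 (0.0324). Replicates 2 and 3 of cnd1-3 correlated best with the Col-0 library of the same number (0.157 and 0.263). Lower genes made up 68.5% of all calls as deposited, 54.3% with median-ratio scaling and 50.5% with quantile normalization, and AOC3 and OPR3 stayed called under both. Signs turned only for log2 fold changes near 0. LOX3 was at 0.01 with median-ratio scaling, 0.08 with quantile normalization and -0.12 to 0.04 without single libraries. AOC1 was at -0.04 with library weights and -0.23 to 0.35 without single libraries, AOC2 at -0.02 to 0.20, the summed AOC1, AOC2 and AOC3 at -0.03 to 0.18, and the log2 ratio of OPR3 to AOS at -0.19 to 0.02. The causes were not tested. ORA47, JAZ1, JAM1, MYC4, FAD3, ZAT12, WRKY40, ZAT10 and CML38 passed in all 18 alternatives. The 22 reads of AOC3 in cnd1-3 limit the precision of its fold change.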

Other observations

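MYC2, the best known activator of jasmonate responses, is listed at 0 in all 6 libraries, which cannot be read as absence of its transcript. In TAIR10.1, 98.5% of its exon bases lie over exons of AT1G32630 on the opposite strand, and AT1G32630 itself stood at 0.3 ± 0.15 FPKM in the mutant and 0.247 ± 0.0443 in the wild type. How reads that fall on both genes were counted is not stated in the labels. The related genes MYC3 and MYC4, with 16.5 ± 0.851 and 4.31 ± 0.198 FPKM in cnd1-3, share no exon bases with another gene.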
